A study of Rattus norvegicus with 10 samples.

Results

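Notch signalling was followed through 10 genes in primary rat oligodendrocyte progenitor cells (OPCs) and oligodendrocytes (OLs) in which miR-145-5p was raised or inhibited. The genes were the ligands Jag1, Dll1 and Dll3, the receptors Notch1, Notch2 and Notch3, the nuclear partner Rbpj, and the targets Hes1, Hes5 and Hey1. They were chosen by name, as 10 of the 23487 genes with deposited counts. The gene symbols of the study's table named 9 of them. Hey1 (ENSRNOG00000011593) had no symbol there and was named through its Entrez identifier.

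The series holds 10 RNA libraries in 5 groups of 2. Cells of all groups came from Sprague-Dawley rat pups aged P1 to P3, whose cortices gave mixed glial cultures from which OPCs were shaken off, a step that enriches them without sorting. OLs had grown in medium with T3, CNTF and N-acetyl cysteine, and their RNA was taken 5 days after transfection with a scrambled mimic (miR-ctl), with the miR-145-5p mimic (miR-145), or with the miR-145-5p and miR-219 mimics (miR-145 + miR-219). OPCs had grown in medium with FGF2 and PDGFAA, and their RNA was taken 24 h after transfection with an inhibitor of miR-145-5p (anti-miR-145) or a scrambled inhibitor (anti-miR-ctl). Each oligonucleotide was used at 30 nM. Groups followed the sample titles, although a treatment tag of both miR-145 libraries also names miR-219, and the methods of the study name lentivirus where its results name mimics. Mature miRNAs were not measured by these mRNA libraries, so the mimics and the inhibitor were not checked here. The reporting summary of the study defines a replicate of primary culture as enriched cultures from an individual animal, though it names mice and these cells are rat. The labels do not tie a library or a replicate number to an animal, so p-values measure the spread between these libraries, whatever its source.

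Notch receptors are cut when a ligand on a neighbouring cell binds them, and the freed intracellular part enters the nucleus, where it joins the DNA-binding protein RBPJ and switches on targets of the Hes and Hey families. Hes and Hey proteins are repressors of transcription. In the oligodendrocyte lineage, Jagged1 acting through Notch1 is known to hold OPCs back from differentiation, and Hes5 is known to repress myelin genes. Notch2 and Notch3 are also expressed outside this lineage, Notch3 above all in mural cells and in glial and neural progenitors.

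The miRNA whose level was changed is shown first, since its seed is what pairs with target transcripts. The labels state that the mimic has the mature sequence, which RefSeq places at chr18:57370033-57370055 on the minus strand of rat build GRCr8. The seed, bases 2 to 8, is in capitals.

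rno-miR-145-5p: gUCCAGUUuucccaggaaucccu

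The promoters of Hes1, Hes5 and Dll1 are shown because Hes1 and Hes5 fell with anti-miR-145 while Dll1 did not pass the test, and because these were the 3 members with the longer RBPJ motif. Each runs from 250 bases before the start of the gene to 50 after it, 5′ to 3′ along the gene, taken from RefSeq (GRCr8). Capitals mark the RBPJ core TGGGAA or its reverse complement TTCCCA.

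Hes1: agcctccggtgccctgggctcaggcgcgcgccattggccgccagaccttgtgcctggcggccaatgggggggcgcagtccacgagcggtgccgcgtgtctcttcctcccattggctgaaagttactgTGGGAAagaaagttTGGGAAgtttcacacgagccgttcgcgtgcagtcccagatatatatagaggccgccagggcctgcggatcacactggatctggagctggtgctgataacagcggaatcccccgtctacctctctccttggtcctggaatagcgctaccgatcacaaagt
Hes5: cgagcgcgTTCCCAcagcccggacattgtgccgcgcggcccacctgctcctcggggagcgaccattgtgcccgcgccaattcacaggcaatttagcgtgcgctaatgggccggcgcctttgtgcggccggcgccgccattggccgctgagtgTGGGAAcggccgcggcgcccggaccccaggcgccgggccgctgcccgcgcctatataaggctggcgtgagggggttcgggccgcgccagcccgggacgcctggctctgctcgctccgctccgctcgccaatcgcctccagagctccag
Dll1: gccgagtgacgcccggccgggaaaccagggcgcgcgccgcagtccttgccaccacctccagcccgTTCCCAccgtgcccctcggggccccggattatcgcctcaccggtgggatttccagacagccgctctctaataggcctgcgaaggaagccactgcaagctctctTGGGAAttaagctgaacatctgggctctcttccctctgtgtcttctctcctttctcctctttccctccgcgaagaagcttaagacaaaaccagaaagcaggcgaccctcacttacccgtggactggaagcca

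The Hes1 promoter lies at chr11:84212996-84213295 on the minus strand and held the core 123 and 109 bases before the start, both in the direction of the gene. The Hes5 promoter (chr5:170804327-170804626, plus strand) held it 98 bases before the start and, on the opposite strand, 242 bases before it. In the Dll1 promoter (chr1:64993225-64993524, minus strand) the core lay 82 bases before the start, and 185 bases before it on the opposite strand. Both strands were searched, and matches are of letters only. RefSeq promoters were matched for 9 of the 10 genes, Hey1 being the exception, and 5 of the 9 held the core, namely Dll1, Hes1, Hes5, Notch3 and Rbpj. Rbpj had more than a single promoter. Counted by promoter, 6 of 10 held the core, against 25.7% of all 33469 promoters of the same length. The longer form GTGGGAA, which contains the core, stood in the promoters of Dll1, Hes1 and Hes5 and in 6.29% of all promoters. CACNAG, the N-box letters bound by Hes repressors, stood in those of Hes1, Notch1 and Notch3 and in 43.1% of all promoters.

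Rounded counts summed to 33505706 to 42684206 per library. Notch1 had 3838 to 7559 counts per library and Rbpj 2955 to 6025, while Hes1 had 48 to 136, Hes5 had 14 to 63, and Notch3 had as few as 13, so the last 3 are measured less precisely. Counts of Notch3 and Rbpj were not whole numbers in 7 of the 10 libraries each, as happens where reads that match more than 1 gene are shared out by the estimate, so their values carry that uncertainty. Levels are given as CPM, counts scaled to the library's total, after TMM normalization over the 10 libraries. They are not divided by transcript length, so each gene is compared only with itself. The OL libraries held myelin transcripts, with Mbp at 6224 to 15517 CPM against 231 to 280 CPM in OPCs, and they also held astrocyte transcripts, with Gfap at 4179 to 9708 CPM against 7.81 to 51.1 CPM. In whole cultures, fewer cells of a type and less RNA per cell cannot be told apart.

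**Figure D1:**
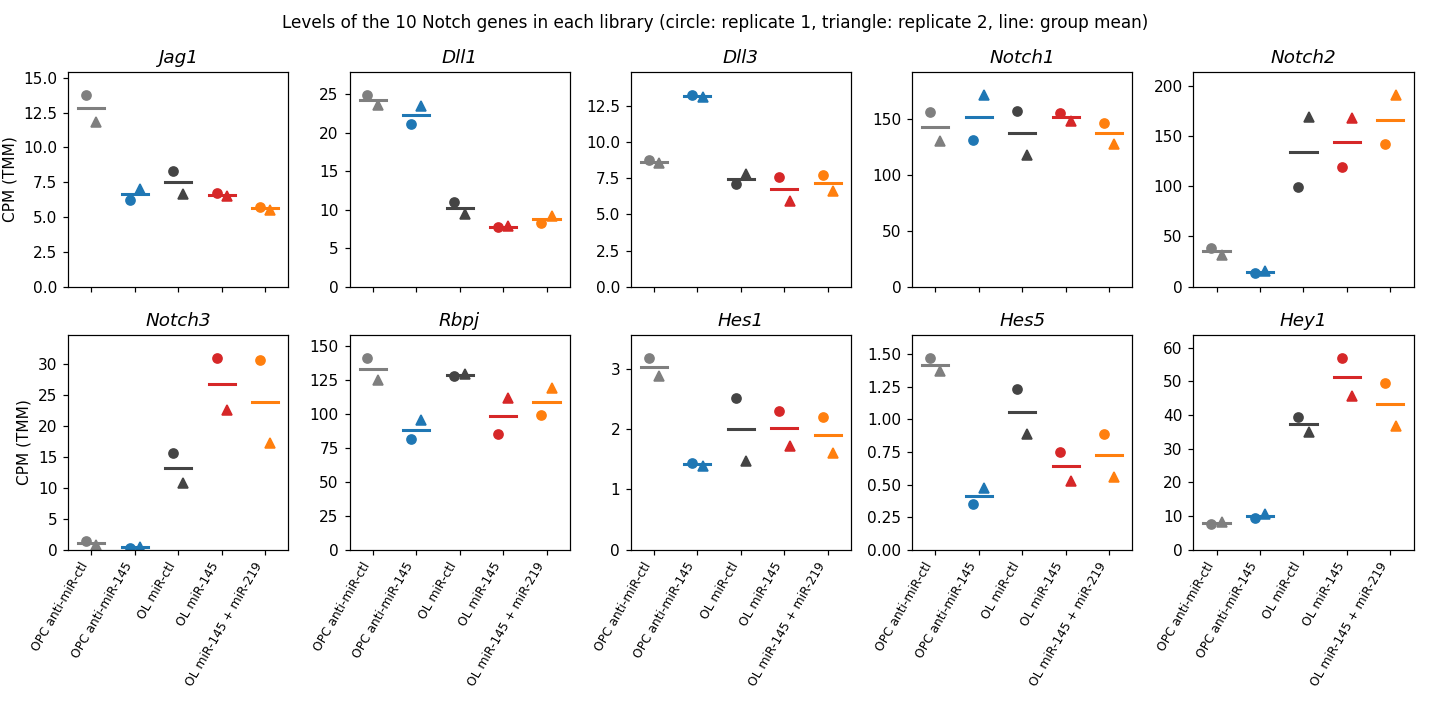
The vertical axis of each panel is the level of 1 gene in CPM, from 0, and the horizontal axis its 5 groups. Circles and triangles are replicates 1 and 2 and lines are group means. Notch2, Notch3 and Hey1 sit higher in all 6 OL libraries than in all 4 OPC libraries, and Dll1 and Dll3 sit lower. The share of all genes that separate the stages in this way was not computed.

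Inhibiting miR-145-5p in OPCs went with lower levels of 6 of the 10 genes. Notch2, Notch3, Jag1, Rbpj, Hes1 and Hes5 fell, Dll3 rose, and Dll1, Notch1 and Hey1 did not pass the test. By role, 1 of 3 ligands, 2 of 3 receptors, the nuclear partner and 2 of 3 targets fell. Of all 15496 genes tested in this comparison, 28.1% were called by edgeR's quasi-likelihood test at a Benjamini-Hochberg adjusted p under 0.05, 12.1% as higher and 16% as lower. The median log2 fold change was -0.76 over the 10 members and 0.0045 over all genes tested.

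Among the ligands, Jag1, a membrane-bound activator of Notch receptors, stood at 6.26 and 6.99 CPM with anti-miR-145, compared with 13.78 and 11.84 CPM with anti-miR-ctl. Both treated libraries were lower, and the log2 fold change was -0.94 (SE 0.13, edgeR adjusted p = 0.0021). Dll3, a divergent ligand known to bind Notch within the cell rather than to activate it from a neighbour, moved the other way, to 13.28 and 13.17 CPM from 8.75 and 8.58 CPM. Its log2 fold change was 0.63 (SE 0.11, edgeR adjusted p = 0.0054), and the call was lost without either control library, at an edgeR adjusted p of 0.0557 without replicate 1 and 0.0551 without replicate 2. Dll1, an activating ligand, was at 21.08 and 23.45 CPM against 24.91 and 23.57 CPM. The groups did not overlap but nearly touched, and the log2 fold change of -0.11 (SE 0.10) had an edgeR adjusted p of 0.444.

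The receptors differed among themselves. Notch1, the receptor best known in OPCs, was at 131 and 172 CPM with anti-miR-145 and at 156 and 130 CPM with anti-miR-ctl. These ranges overlapped, with a log2 fold change of 0.09 (SE 0.14, edgeR adjusted p = 0.648). Notch2 was at 13.5 and 15.9 CPM against 38.7 and 32.0 CPM, a 2.38-fold lower mean level by the fit. Both treated libraries were far below both controls (log2 fold change -1.25, SE 0.13, edgeR adjusted p = 0.00057). Notch3 was low in all 4 libraries, at 0.32 and 0.36 CPM against 1.38 and 0.79 CPM. Its log2 fold change of -1.65 (SE 0.39, edgeR adjusted p = 0.022) rested on the anti-miR-ctl replicate 1 library, without which it was -1.22 with an edgeR adjusted p of 0.135. Fitting all 5 groups together gave Notch3 an edgeR adjusted p of 0.0555.

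Rbpj, through which every Notch receptor acts on DNA, was at 81.1 and 94.9 CPM with anti-miR-145 and at 141 and 125 CPM with anti-miR-ctl. It fell by 0.58 on the log2 scale (SE 0.10, edgeR adjusted p = 0.0067). Hes1, a repressor induced by Notch, was at 1.44 and 1.38 CPM against 3.18 and 2.88 CPM, and its log2 fold change was -1.09 (SE 0.20, edgeR adjusted p = 0.0085). Hes5, the Hes gene most tied to Notch in neural progenitors, was at 0.35 and 0.48 CPM against 1.47 and 1.37 CPM, a log2 fold change of -1.76 (SE 0.31, edgeR adjusted p = 0.0068). Both of these low genes had 2 treated libraries well below 2 close controls. Hey1, a repressor of the related Hey family, was at 9.41 and 10.69 CPM against 7.58 and 8.17 CPM. Both treated libraries were higher, with a log2 fold change of 0.37 (SE 0.12) and an edgeR adjusted p of 0.067. Without the anti-miR-145 replicate 1 library, Hey1 and Notch1 were called higher as well, at edgeR adjusted p-values of 0.023 and 0.045. Of the 10 genes, 7 had both treated libraries lower and 2 had both higher, against 35.1% and 32.8% of all genes tested. DESeq2 called the same number of members, 7, and 26.4% of genes, and edgeR with all 5 groups in 1 fit called 6 members and 17.1% of genes.

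Another 56 genes of the pathway were listed by role and 51 were found in the count table. With anti-miR-145, 6 of the 51 rose and 7 fell, with a median log2 fold change of 0.00, so 13 of 51 were called beside 28.1% of all genes tested. Those that rose with the smallest p were Dlk1, Numbl and Tle2. Dlk1, a membrane protein related to Delta and known as a non-canonical Notch ligand, was at 41.7 and 33.9 CPM against 11.1 and 9.81 CPM (log2 fold change 1.87, SE 0.14, edgeR adjusted p = 0.00016). Numbl, an inhibitor of the receptor, was at 27.2 and 28.7 CPM against 16.9 and 14.8 CPM (log2 fold change 0.83, SE 0.10, edgeR adjusted p = 0.0013). Tle2, a corepressor that works with Hes proteins, had a log2 fold change of 0.45 (SE 0.08, edgeR adjusted p = 0.0080). These 3 genes had both treated libraries above both controls.

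Those that fell with the smallest p were Neurl1b, Nrarp and Lfng. Neurl1b, a ubiquitin ligase that promotes uptake of ligands, was at 7.25 and 8.17 CPM against 19.1 and 17.5 CPM (log2 fold change -1.23, SE 0.11, edgeR adjusted p = 0.00035). Nrarp, a target of Notch that feeds back to dampen it, was at 12.6 and 13.9 CPM against 24.1 and 21.2 CPM (log2 fold change -0.76, SE 0.11, edgeR adjusted p = 0.0027). Lfng, a glycosyltransferase that changes which ligands a receptor answers to, was at 27.5 and 26.2 CPM against 46.4 and 39.8 CPM (log2 fold change -0.67, SE 0.10, edgeR adjusted p = 0.0038). Its promoter also held the longer RBPJ motif, 124 bases before the start. So did promoters of Mib1, Spen, Snw1, Poglut1, Hey2 and Hes7, which were not called with anti-miR-145. The Nrarp promoter held neither RBPJ form. With all 5 groups in 1 fit, 7 pathway genes were called, beside 17.1% of all genes, and the calls of Nrarp (edgeR adjusted p = 0.306) and Tle2 (0.143) were lost. By role, 3 of 5 receptor glycosylation genes were called (1 higher, 2 lower), 3 of 10 corepressors (2 higher, 1 lower), 2 of 9 genes of receptor cleavage (1 higher, 1 lower) and 0 of 4 coactivators by edgeR, of which 0 had an unadjusted p under 0.05 and 0 were called by DESeq2.

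Other transcripts moved in the same libraries. All 9 interferon response genes found of 10 listed were called lower, with a median log2 fold change of -3.12, and their summed level was 209 to 247 CPM with anti-miR-145 against 1651 to 1757 CPM with anti-miR-ctl. All 6 genes of cycling cells were called lower, with a summed level of 554 to 641 CPM against 1504 to 1590 CPM. The summed astrocyte list (8 of 8 found) was at 403 to 447 CPM against 636 to 674 CPM, with 4 genes called lower and 1 higher. Gfap was at 40.7 and 51.1 CPM against 8.23 and 7.81 CPM. Microglial markers (10 of 10 found) summed to 850 to 1045 CPM against 865 to 923 CPM, but 6 were called higher and 3 lower. Among them Cx3cr1 had a log2 fold change of 1.83 and C1qb of 1.34, while Itgam had -1.58 and Aif1 -1.40. Mural or fibroblast markers (6 of 9 found) summed to 1.91 to 3.05 CPM against 1.54 to 1.62 CPM, with Kcnj8 at 0 in all 4 libraries and Acta2 at 0 to 0.10 CPM. Endothelial markers (6 of 8 found) summed to 3.15 to 3.84 CPM against 12.4 to 12.98 CPM, a sum mostly of Flt1 in the controls. Neuronal markers (6 of 7 found) summed to 130 to 140 CPM against 82.2 to 84.7 CPM, and OPC markers (7 of 8 found) to 7422 to 8463 CPM against 6318 to 6569 CPM. The part of the interferon, cycling and cell type differences in the values of the Notch genes was not tested.

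**Figure D2:**
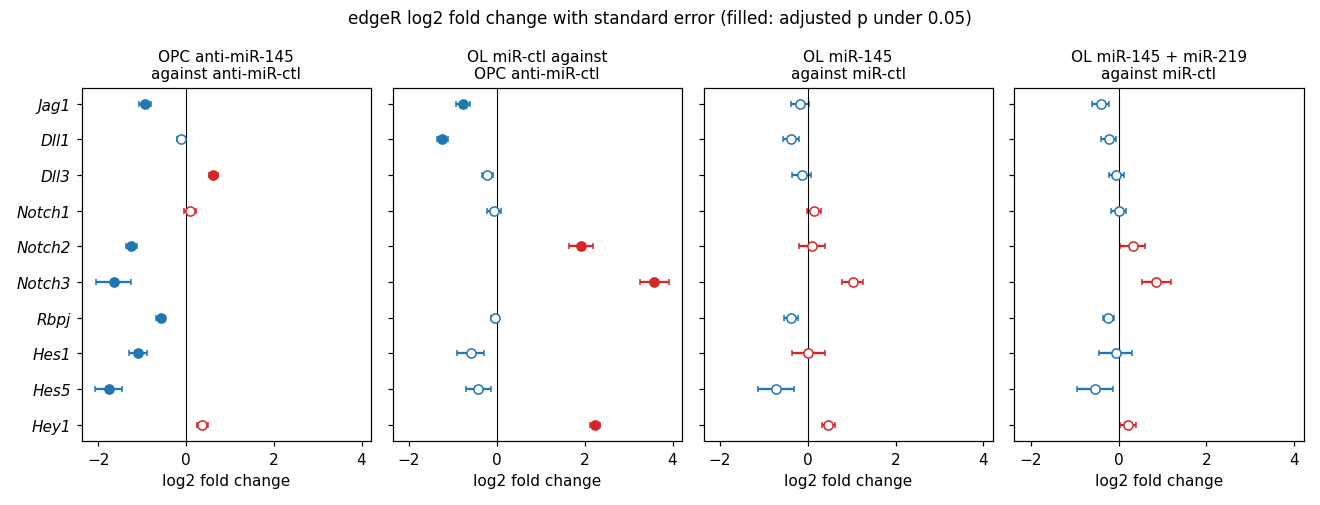
Each panel is 1 comparison, the horizontal axis is the log2 fold change and bars are its standard error. Filled points had an edgeR adjusted p under 0.05, with 7 of them in the anti-miR-145 panel, 5 in the panel of control OLs against control OPCs, and 0 in both mimic panels.

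Control OLs were set against control OPCs to place these genes in differentiation. Stage, medium, kind of control oligonucleotide and time after transfection all differed between these groups and cannot be told apart, and the OPC controls are those of the comparison above. Of the 10 genes, 3 were called higher in OLs (Notch2, Notch3 and Hey1) and 2 lower (Jag1 and Dll1). Called genes made up 57.5% of the 15721 tested, 28.8% as higher and 28.7% as lower, so 5 of 10 is near the background. DESeq2 called 5 members and 53.4% of genes, and all 5 groups in 1 fit gave 5 members and 55.9% of genes. Both OL libraries were above both OPC libraries for 3 members and below for 5, against 41.2% and 40.5% of all genes. The median log2 fold change of the members was -0.14.

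Notch3 differed most, at 15.6 and 10.8 CPM in control OLs against 1.38 and 0.79 CPM in control OPCs (log2 fold change 3.58, SE 0.33, edgeR adjusted p = 0.00067). Hey1 was at 39.5 and 35.0 CPM against 7.58 and 8.17 CPM (log2 fold change 2.24, SE 0.12, edgeR adjusted p = 0.00012). Notch2 was at 98.9 and 169 CPM against 38.7 and 32.0 CPM (log2 fold change 1.92, SE 0.27, edgeR adjusted p = 0.0030). Over all libraries these 3 genes lay higher in every OL library than in every OPC library. The gap between the lowest OL and the highest OPC library was 7.85-fold for Notch3, 3.28-fold for Hey1 and 2.55-fold for Notch2. Dll1 and Dll3 lay lower in every OL library, with gaps of 1.92-fold and 1.10-fold. The share of all genes that separate the stages over all libraries was not computed. Notch1 overlapped between the groups, at 157 and 118 CPM against 156 and 130 CPM, with a log2 fold change of -0.06 (SE 0.16, edgeR adjusted p = 0.768) that turned to a called -0.27 (edgeR adjusted p = 0.024) without the OL miR-ctl replicate 1 library.

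Of the ligands, Dll1 and Jag1 were lower in OLs. Dll1 was at 11.01 and 9.49 CPM in control OLs and at 24.9 and 23.6 CPM in control OPCs (log2 fold change -1.24, SE 0.12, edgeR adjusted p = 0.00082). Jag1 was at 8.32 and 6.66 CPM against 13.8 and 11.8 CPM (log2 fold change -0.78, SE 0.17, edgeR adjusted p = 0.012). The call of Jag1 was lost without either OPC control, at an edgeR adjusted p of 0.105 without replicate 1 and 0.0566 without replicate 2. Dll3, Hes1 and Hes5 had both OL libraries lower but did not pass, with log2 fold changes of -0.22 (SE 0.13), -0.60 (SE 0.31) and -0.42 (SE 0.29). Without the OL miR-ctl replicate 1 library Hes1 was called, at -1.03 (edgeR adjusted p = 0.0057). Rbpj overlapped between the groups, at a log2 fold change of -0.05 (SE 0.09).

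The rest of the pathway had 18 genes higher and 13 lower of 51 tested, 31 in all, beside 57.5% of all genes. Jag2, the second Jagged ligand, was at 158 and 79.4 CPM in control OLs and at 4.02 and 3.07 CPM in control OPCs (log2 fold change 5.05, SE 0.40, edgeR adjusted p = 0.00044). Psen2, a catalytic subunit of the γ-secretase that frees the receptor's intracellular part, was at 46.8 and 82.5 CPM against 6.27 and 5.73 CPM (log2 fold change 3.42, SE 0.30, edgeR adjusted p = 0.00061). Both genes had OL libraries far above OPC libraries. The receptor cleavage genes as a group had 5 of 9 higher and 1 lower.

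Lower in OLs were Cntn1, Neurl1b and Tle2, by the same rule. Cntn1, an adhesion molecule described as a Notch ligand in the oligodendrocyte lineage, was at 426 and 390 CPM against 1524 and 1490 CPM (log2 fold change -1.89, SE 0.09, edgeR adjusted p = 9.5e-05). Neurl1b was at 3.87 and 2.18 CPM against 19.1 and 17.5 CPM, and Tle2 at 16.2 and 10.8 CPM against 45.2 and 44.7 CPM. Their log2 fold changes were -2.59 (SE 0.27) and -1.74 (SE 0.20), with OL libraries well below OPC libraries in both.

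Cell type markers moved with stage. Maturing OL markers were called higher for 8 of 9 genes, with a summed level of 16889 to 31037 CPM in control OLs against 1253 to 1320 CPM in control OPCs. Astrocyte markers were called higher for 7 of 8 genes, with a summed level of 5404 to 6423 CPM against 636 to 674 CPM and a median log2 fold change of 2.61. Mural or fibroblast markers summed to 20.3 to 30.7 CPM against 1.54 to 1.62 CPM, with Acta2 at 0.05 and 0.06 CPM in control OLs. In control OLs this mural sum was mostly Tagln (26.9 and 16.6 CPM). OPC markers summed to 2805 to 3391 CPM against 6318 to 6569 CPM. Interferon response (9 of 9) and cycling (6 of 6) genes were called lower. The part of astrocyte or other non-OL cells in the higher Notch2, Notch3, Hey1 and Jag2 of OLs was not tested. Per 1000 CPM of the summed astrocyte list, Notch3 stood at 2.43 and 2.01 in control OLs and at 2.05 and 1.25 in control OPCs. On the same scale Hey1 was lower in control OLs, at 6.15 and 6.48 against 11.2 and 12.8 in control OPCs, the opposite of its direction in CPM. That sum was mostly Gfap in control OLs (4799 and 4179 CPM). In control OPCs it was mostly Slc1a3 (404 and 376 CPM) and Aldoc (221 and 213 CPM), with Gfap at 8.23 and 7.81 CPM. The scale is thus not the same measure in both stages. Notch2 and Jag2 were not put on this scale.

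**Figure D3:**
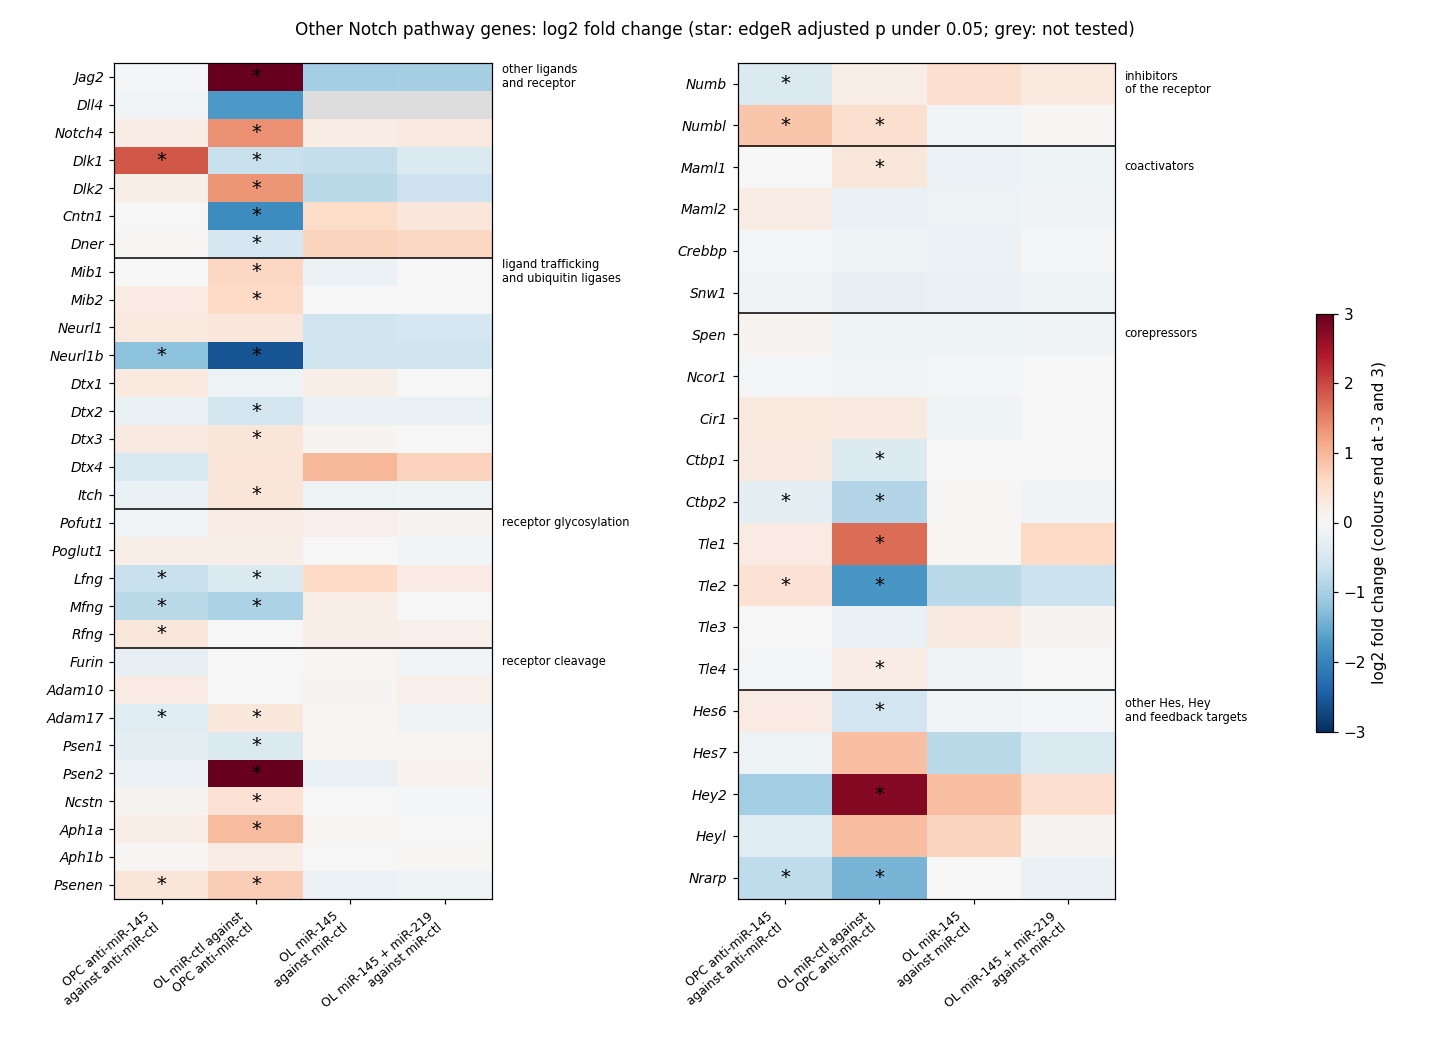
Rows are 50 other pathway genes by role and columns are 4 comparisons. Colour is the log2 fold change, and a star marks an edgeR adjusted p under 0.05. Stars stand at 12 genes for anti-miR-145 and at 30 for control OLs against control OPCs, and at 0 for both mimic groups.

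The miR-145 mimic in OLs addressed what the study set out to follow, the transcripts that change when miR-145-5p is raised. No gene of the 10 was called by edgeR without a block, where 0% of the 15461 genes tested were called. At an unadjusted p under 0.05, 2 members passed, Notch3 and Hey1, both higher, against 13.4% of all genes. DESeq2 called 1 member, Notch3, against 4.37% of the genes it tested, and edgeR with all 5 groups in 1 fit called 0 members and 0.511% of genes. With the replicate number as a block, a pairing that the labels do not state, edgeR called 3 members, Notch3 (adjusted p = 3.5e-08), Hey1 (0.0074) and Rbpj (0.018), and 14.7% of genes. A block in 4 libraries leaves little to measure the spread of each gene, so such p-values rest largely on spread shared over genes. The miR-145 libraries lay wholly above the miR-ctl libraries for 2 members and wholly below for 3, against 22.9% and 24.4% of all genes.

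Notch3 was at 31.0 and 22.6 CPM with miR-145 and at 15.6 and 10.8 CPM with miR-ctl. Both mimic libraries were higher, and the log2 fold change was 1.02 (SE 0.24, edgeR adjusted p = 0.197), with a DESeq2 adjusted p of 0.013. Hey1 was at 57.0 and 45.8 CPM against 39.5 and 35.0 CPM. Its libraries were also apart, with a log2 fold change of 0.47 (SE 0.15, edgeR adjusted p = 0.298).

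Rbpj was at 85.2 and 111 CPM against 127 and 129 CPM, with both mimic libraries below the controls and a log2 fold change of -0.38 (SE 0.16, edgeR adjusted p = 0.388). Dll1 was at 7.73 and 7.88 CPM against 11.01 and 9.49 CPM (log2 fold change -0.39, SE 0.18). Hes5 was at 0.75 and 0.53 CPM against 1.23 and 0.89 CPM (log2 fold change -0.73, SE 0.41). These 3 genes had lower mimic libraries without passing the unblocked test. The other 5 overlapped between groups, with log2 fold changes of -0.18 for Jag1 (SE 0.21), -0.14 for Dll3 (SE 0.21), 0.15 for Notch1 (SE 0.16), 0.10 for Notch2 (SE 0.30) and 0.01 for Hes1 (SE 0.38). For Notch2 the replicates differed more than the groups, at 119 and 168 CPM with miR-145 and 98.9 and 169 CPM with miR-ctl.

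Of 50 other pathway genes tested, 0 were called by edgeR, 5 higher and 3 lower had an unadjusted p under 0.05, and DESeq2 called 3, beside 0%, 13.4% and 4.37% of all genes. With the replicate number as a block 10 of the 50 were called, beside 14.7% of all genes. The 3 that DESeq2 called were Dtx4 (log2 fold change 0.99, SE 0.22), Lfng (0.59, SE 0.13) and Cntn1 (0.55, SE 0.15), named after their values were seen. Dtx4 belongs to the Deltex family of ubiquitin ligases that act on Notch. All 3 had both mimic libraries above both controls, as Notch3 and Hey1 had. Jag2, also named after its values were seen, was at 71.4 and 45.3 CPM with miR-145 against 158 and 79.4 CPM (log2 fold change -1.02, SE 0.37, edgeR adjusted p = 0.346, and 5.4e-11 with the block). Its mimic libraries lay below both controls. The limit given above for the block applies to its blocked p-value.

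Astrocyte transcripts summed to more in both mimic libraries than in both controls. The 8 astrocyte markers all had positive log2 fold changes, with a median of 0.87 and 0 called by edgeR, 6 of them at an unadjusted p under 0.05. Their summed level was 13163 and 8923 CPM with miR-145 and 6423 and 5404 CPM with miR-ctl. Per 1000 CPM of that sum, Notch3 was at 2.36 and 2.53 with miR-145 and at 2.43 and 2.01 with miR-ctl, so on this scale the groups overlapped. Hey1 on the same scale was lower with miR-145, at 4.33 and 5.13 against 6.15 and 6.48. Mural or fibroblast markers summed to 47.8 to 55.6 CPM against 20.3 to 30.7 CPM, with positive log2 fold changes for 5 of 5 tested. Acta2 was at 0.18 to 0.52 CPM against 0.05 to 0.06 CPM. The sum was mostly Tagln, at 40.1 and 31.1 CPM with miR-145 and 26.9 and 16.6 CPM with miR-ctl. Col1a1 was at 1.76 and 16.4 CPM against 0.93 and 1.17 CPM, so much of its rise lay in 1 library. Pdgfrb was at 5.16 and 5.88 CPM against 2.66 and 2.33 CPM. Microglial markers summed to 366 and 955 CPM against 379 and 569 CPM, with positive log2 fold changes for 10 of 10, a median of 0.71 and 0 called. Log2 fold changes were positive for 3 of 9 maturing OL markers (median -0.23) and 2 of 7 OPC markers (median -0.37), with 0 called. The part of these cells in the Notch3 and Hey1 values was not tested.

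The spread between replicates of the OL groups also moved with markers. In all 3 OL groups the library with the higher Notch3 level had the higher astrocyte sum and the lower maturing OL sum, and its Notch3 was 1.37 to 1.77 times that of the other library. Notch2 ran the other way, at 0.58 to 0.74 of the other library's level, beside a maturing OL sum at 0.54 to 0.63 of it. The microglia sum, at 0.38 to 0.67, and the neuron sum, at 0.78 to 0.95, ran that way too. The OPC sum ran with Notch3 instead, at 1.11 to 1.21 times the other library's level in all 3 groups. The library with more Notch3 was replicate 1 in each group. Same-numbered OL libraries deviated together (correlations 0.40, 0.46 and 0.62), so the 3 groups may not be independent. Hey1, Hes1, Hes5, Notch1 and Jag1 were higher, and Rbpj lower, in the same libraries as Notch3 was higher. Per 1000 CPM of the maturing OL sum, Notch2 was at 7.66 and 6.74 with miR-145, 7.29 and 5.60 with miR-145 + miR-219, and 5.85 and 5.45 with miR-ctl.

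**Figure D4:**
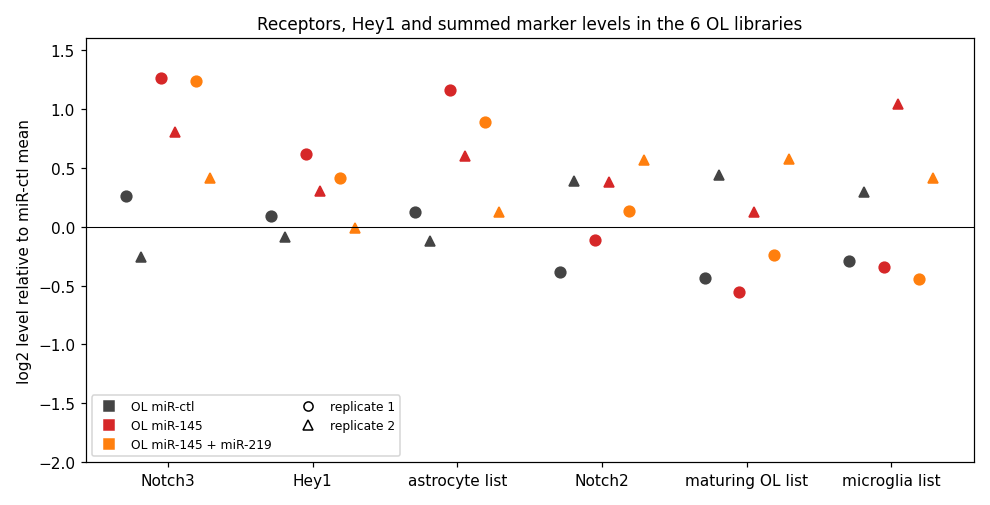
The vertical axis is the log2 level in each of the 6 OL libraries relative to the mean of the miR-ctl libraries, for 3 genes and 3 summed marker lists. Colours are groups, and circles and triangles are replicates 1 and 2. Notch3, Hey1 and the astrocyte list have circles above triangles in each group, and Notch2, the maturing OL list and the microglia list have them below.

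With the miR-219 mimic added to miR-145, Notch3 was again above both controls and no member was called without the block. Against miR-ctl, a control group shared with the comparison above, edgeR called 0 members and 0% of 15436 genes. At an unadjusted p under 0.05 were 1 member, Notch3, and 6.19% of all genes, while DESeq2 called 0 members and 0.687% of genes. With the replicate block edgeR called 1 member, Notch3 (adjusted p = 0.047), and 0.855% of genes. Notch3 was at 30.7 and 17.3 CPM with miR-145 + miR-219, above both miR-ctl libraries (log2 fold change 0.86, SE 0.33, edgeR adjusted p = 0.801). Its level per 1000 CPM of the astrocyte sum was 2.81 and 2.69, above both miR-ctl libraries at 2.43 and 2.01. The overlap seen on this scale with miR-145 was thus absent here. Jag1, Dll1, Rbpj and Hes5 lay wholly below miR-ctl, at log2 fold changes of -0.41 (SE 0.20), -0.23 (SE 0.17), -0.23 (SE 0.13) and -0.54 (SE 0.41), and 19.4% of all genes lay wholly below and 17.3% wholly above. Hey1, at 49.4 and 36.8 CPM, overlapped with miR-ctl. Of the other pathway genes edgeR called 0 of 50, without or with the block, and DESeq2 0, and 1 had an unadjusted p under 0.05, Jag2, at 60.4 and 58.9 CPM (log2 fold change -0.99, SE 0.33).

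Against miR-145 alone, 0 members were called by edgeR or by DESeq2, and 0 had an unadjusted p under 0.05. Over all genes edgeR called 0%, DESeq2 0.0616%, and 1.47% had an unadjusted p under 0.05. With the replicate block edgeR called 0 members and 1.19% of genes. The log2 fold changes of the members ran from -0.26 for Hey1 to 0.20 for Notch2, each with standard errors of 0.11 to 0.43, and 7 of the 10 genes overlapped between groups. Dll1 lay wholly above and Jag1 and Notch1 wholly below, against 13.6% and 11.2% of all genes.

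Mean levels were also put in order over the 5 groups. Dll1 increased in the order OL miR-145, OL miR-145 + miR-219, OL miR-ctl, OPC anti-miR-145 and OPC anti-miR-ctl, with no overlap between neighbours. Its steps within a stage were not called, at edgeR adjusted p-values of 0.99995, 0.863 and 0.444. At those steps 13.6%, 19.4% and 35.1% of all genes lay apart in the same direction. The share of all genes with such a full order was not computed for any member. Notch2 and Notch3 were lowest in OPC anti-miR-145 and next in OPC anti-miR-ctl, and neither overlapped the OL groups. Among OLs the Notch2 neighbours overlapped, while for Notch3 OL miR-ctl lay below the other OL groups, which overlapped with each other. Hey1 was lowest in OPC anti-miR-ctl, next in OPC anti-miR-145 and higher in OLs, where miR-ctl overlapped with miR-145 + miR-219 and that group with miR-145. Dll3 was highest in OPC anti-miR-145, with OPC anti-miR-ctl next and the OL groups overlapping below. Jag1 was highest in OPC anti-miR-ctl and lowest in OL miR-145 + miR-219, both apart from their neighbours, and the 3 groups between them overlapped as neighbours. Notch1 overlapped between all neighbours, with group means of 137 to 152 CPM. Hes1, Hes5 and Rbpj were lowest in OPC anti-miR-145 and highest in OPC anti-miR-ctl. For Rbpj the lowest group overlapped with OL miR-145 and the highest with OL miR-ctl.

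For each member the genes whose levels ran most alike over the 10 libraries were found by the root mean square difference of log2(CPM + 1), centred on each gene's mean. Notch3 ran closest to Igsf1 (difference 0.13) and Tmem229a (0.17), against its own standard deviation of 1.95 on that scale. Hey1 ran closest to Trim16 (0.08) and Wls (0.11), with a standard deviation of 1.14. Notch2 was nearest to Tmem123 (0.18) and Carmil1 (0.19), with a standard deviation of 1.43. Those 3 members vary widely between the stages, and so do their nearest genes, which follows from how these were chosen.

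The ligands Jag1, Dll1 and Dll3 were nearest to Atp11b and Ankrd26, to Atp9a and Cbx2, and to LOC100911991 and Pmvk. Notch1 was nearest to Pi4ka and Tead1, and Rbpj to Ythdc2 and Ranbp17. Hes1 was nearest to Arntl and Apcdd1, and Hes5 to Kcnmb4 and Ivns1abp. Their differences were 0.08 to 0.12, against standard deviations of the members of 0.17 to 0.68. Adding 1 to CPM narrows the differences of genes at low levels, such as Hes1 and Hes5. No other member was among the nearest 2 of any member, out of 12689 or 12690 candidates.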

How the data were processed

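RNA was sequenced in 10 libraries of primary rat cells (TruSeq Stranded mRNA). The authors assigned reads to GENCODE Rnor6.0 transcripts with Salmon 0.12.0 and tximport and deposited the estimated counts of each gene without normalizing them, of which 16.0% to 17.5% per library were not whole. They were rounded. The authors' table for OL miR-145 also holds mean signal, log2 fold changes, scores and p-values. It served for gene symbols and Entrez identifiers alone.

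The 4 libraries of each of 5 comparisons were fitted alone by edgeR 4.0.16 in R 4.3.3 (TMM, estimateDisp, glmQLFit, glmQLFTest). A gene needed 5 counts or more in 2 or more of them, and was called where its Benjamini-Hochberg adjusted p was under 0.05. The SE is the size of the log2 fold change divided by the square root of F. Alternatives were DESeq2 1.42.0, its size factors within edgeR, no filter, all 5 groups in 1 fit, a replicate block, and leaving out each library. The functions were tested on simulated data. Figures were drawn in Python 3.11.15 with matplotlib 3.10.9.

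All 10 members were named, with the called genes of the pathway list, up to 3 higher and 3 lower with the smallest p (1 such gene is counted but not reported here), and for each member the 2 genes of mean CPM at least 1 most alike. The members and lists were chosen with earlier results of these data known. Motifs were searched in RefSeq promoters (GRCr8). Coordinates of genes in Rnor6.0, protein sequences, and the mature miRNAs were not analysed here.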

Additional observations from a re-analysis of the deposited data

How the results depend on the processing

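Precision rests on 2 libraries per group, and low counts limit it further for Hes1, Hes5 and, in OPCs, Notch3. edgeR called 0 genes in each of the 3 OL comparisons. DESeq2 called 649 genes for miR-145 against miR-ctl (1 member, Notch3), 106 for miR-145 + miR-219 against miR-ctl and 9 for miR-145 + miR-219 against miR-145. All 5 groups in 1 fit gave 79 genes for miR-145 and 2657, rather than 4348, for anti-miR-145, and no filter gave 1 gene for miR-145 + miR-219 against miR-ctl. The cause was not tested.

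Same-numbered OL libraries deviated together (correlations of deviations 0.40, 0.46 and 0.62), OPC libraries did not (-0.14), nor did control OLs with control OPCs (0.06), and the labels give no pairing. With the replicate number as a block, edgeR called 2272 genes and 3 members for miR-145 against miR-ctl (Notch3, adjusted p = 3.5e-08, Hey1, 0.0074, and Rbpj, 0.018), 132 genes and 1 member (Notch3, 0.047) for miR-145 + miR-219 against miR-ctl, and 184 genes and 0 members for miR-145 + miR-219 against miR-145. The block changed no other call of a member. With 4 libraries in each fit, p-values with the block rest largely on spread shared over genes.

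Leaving out 1 library, where the lone library of a group is assumed to vary like the other group, gave 2348 to 7133 called genes and 5 to 9 members for anti-miR-145, and 4780 to 10306 genes and 4 to 7 members for control OLs against control OPCs. It gave 0 calls in the OL comparisons. The lowest counts came without either OPC anti-miR-ctl library, at 2348 and 2407 genes for anti-miR-145 and 4842 and 4780 for control OLs.

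Signs turned only for log2 fold changes that were not called with all libraries. Notch1 for miR-145 + miR-219 against miR-ctl, at -0.00013, became 0.0051 with DESeq2, 0.0051 with its size factors, 0.0067 with no filter and 0.012 with the block. With 1 library left out, log2 fold changes for miR-145 against miR-ctl ran from -0.32 to 0.020 for Dll3, -0.051 to 0.37 for Notch1, -0.23 to 0.54 for Notch2 and -0.33 to 0.45 for Hes1. For miR-145 + miR-219 against miR-ctl they ran from -0.17 to 0.041 for Dll3, -0.20 to 0.23 for Notch1, -0.017 to 0.75 for Notch2, -0.40 to 0.38 for Hes1 and -0.0086 to 0.40 for Hey1. Against miR-145 alone they ran from -0.077 to 0.25 for Dll3, -0.036 to 0.48 for Notch2, -0.63 to 0.18 for Notch3, -0.053 to 0.35 for Rbpj, -0.33 to 0.13 for Hes1 and -0.19 to 0.46 for Hes5. They ran from -0.095 to 0.26 for Notch1 with anti-miR-145, and from -0.27 to 0.14 for Notch1 and -0.15 to 0.012 for Rbpj for control OLs against control OPCs. Notch3 for miR-145 against miR-ctl stayed positive, from 0.78 to 1.31.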
